A study of Mus musculus with 4 samples.

Results

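The genes of the Wnt pathway described here are 48 of the 27745 gene names on the array, read by 66 of 41174 probes. They were chosen by name: every probe named Wnt, Fzd, Sfrp or Dkk with a family number, Lrp5, Lrp6, Ror2, Wif1, Frzb, Axin1, Axin2, Lef1, Tcf7, Nkd1 or Nkd2. The set was selected on earlier results for these same contrasts, so the values below are a description with no test. By role they are 19 Wnt ligands, 13 receptors, 10 secreted antagonists and 6 intracellular regulators and targets.

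The cells were mouse embryonic fibroblasts (MEFs), primary cells cultured from embryos, here of the C57BL/6J strain with the genotype given as Lats2-/- (KO) or Lats2+/+ (WT). LATS2 is a kinase of the Hippo pathway, which holds the coactivators YAP and TAZ out of the nucleus in crowded cells. Within each genotype, RNA of a low density culture, subconfluent after 48 hours, was hybridised on 2-colour arrays against RNA of a high density culture kept for 3 to 5 days, so that density and time in culture cannot be told apart. A genotype had 2 of the 4 arrays, a dye swap of each other and here taken as a technical repeat, which leaves 1 replicate for each genotype and density and no replicate check of any difference given here.

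Wnt ligands are secreted, lipid-modified proteins that bind Frizzled (Fzd) receptors together with the coreceptors LRP5 and LRP6, or with other receptors such as ROR2. Binding at LRP5 and LRP6 stops the destruction of beta-catenin by a complex that AXIN1 and AXIN2 scaffold, and beta-catenin then acts in the nucleus with LEF1, TCF7 and related factors. SFRP proteins, FRZB and WIF1 bind the ligands, DKK proteins act at LRP5 and LRP6, and AXIN2, NKD1 and LEF1 are widely used as target genes of the pathway. In fibroblasts the pathway is known for its part in growth, matrix production and the patterning of limb, skin and skeleton.

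Before the values, the promoters of members that moved together are shown. Wnt2, Wnt5b, Fzd1 and Nkd1 were higher at high density in both genotypes, and Wnt11 is added as the other member with a window that held the full TCF/LEF motif CTTTGAT. Wnt5b and Wnt11 have windows at other annotated starts without the full motif, and the window printed for each is the one that holds it. The windows run from 250 bases before to 50 bases after an annotated start and come from RefSeq, build GRCm38.p6: Wnt2 at chr6:18030396-18030695 (minus strand), Wnt5b at chr6:119449337-119449636 (minus strand), Fzd1 at chr5:4758167-4758466 (minus strand), Nkd1 at chr8:88527383-88527682 (plus strand) and Wnt11 at chr7:98834862-98835161 (plus strand). They are printed 5′ to 3′ along the gene, and the capitals mark the core letters CTTTG or CAAAG, which lie inside the longer TCF/LEF motif CTTTGAT or ATCAAAG, written in capitals at its full length where present. The Wnt2 and Nkd1 windows hold none of these letters.
Wnt2: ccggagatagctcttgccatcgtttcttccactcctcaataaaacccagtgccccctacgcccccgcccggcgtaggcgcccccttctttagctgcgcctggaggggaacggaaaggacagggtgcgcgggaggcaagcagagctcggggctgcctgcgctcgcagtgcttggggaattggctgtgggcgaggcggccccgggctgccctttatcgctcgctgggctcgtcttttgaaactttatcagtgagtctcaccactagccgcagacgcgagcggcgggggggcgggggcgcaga
Wnt5b: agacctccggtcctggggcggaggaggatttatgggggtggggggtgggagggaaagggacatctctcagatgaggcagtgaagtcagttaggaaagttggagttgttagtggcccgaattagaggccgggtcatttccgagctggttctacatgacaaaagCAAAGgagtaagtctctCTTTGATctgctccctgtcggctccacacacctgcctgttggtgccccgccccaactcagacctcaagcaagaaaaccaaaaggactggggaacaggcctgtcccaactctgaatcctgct
Fzd1: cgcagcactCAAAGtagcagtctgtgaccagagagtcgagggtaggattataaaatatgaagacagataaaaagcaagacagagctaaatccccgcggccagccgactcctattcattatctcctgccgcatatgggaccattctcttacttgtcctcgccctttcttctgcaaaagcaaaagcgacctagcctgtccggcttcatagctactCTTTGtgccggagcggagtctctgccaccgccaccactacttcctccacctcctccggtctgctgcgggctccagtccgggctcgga
Nkd1: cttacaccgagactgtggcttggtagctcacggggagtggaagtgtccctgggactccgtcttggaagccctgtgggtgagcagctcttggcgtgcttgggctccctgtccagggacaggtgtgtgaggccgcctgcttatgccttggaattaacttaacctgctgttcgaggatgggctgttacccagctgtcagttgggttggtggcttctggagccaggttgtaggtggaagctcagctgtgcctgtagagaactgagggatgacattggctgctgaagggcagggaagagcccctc
Wnt11: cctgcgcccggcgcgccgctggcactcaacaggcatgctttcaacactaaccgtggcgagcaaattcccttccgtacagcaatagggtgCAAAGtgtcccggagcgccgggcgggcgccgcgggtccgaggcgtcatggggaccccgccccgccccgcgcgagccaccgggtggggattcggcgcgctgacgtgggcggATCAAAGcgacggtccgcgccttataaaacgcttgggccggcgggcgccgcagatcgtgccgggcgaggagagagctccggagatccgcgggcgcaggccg

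Windows were found for 33 of the 48 members, 40 in all, and the others, among them Sfrp1, Wnt5a, Lrp5 and Lrp6, had none in the table used. CTTTGAT on either strand was present in 2 of these 40 windows, 1 each of Wnt5b and Wnt11, and in 3.73% of all 32851 windows of the same length. The first base of the motif lay at position -71 in the Wnt5b window and at position -51 in the Wnt11 window, where -1 is the base before the start. The shorter CTTTG, which overlaps it, was present in 20 of the 40 windows and in 53.93% of all. GGAATG, the letters bound by TEAD factors, the DNA-binding partners of YAP and TAZ, was present on either strand in 1 member window, another one of Wnt5b, and in 14.66% of all. TGANTCA, the AP-1 motif, was present in 2 member windows, of Ror2 and of a further start of Wnt5b, and in 7.81% of all. These matches describe the letters of the windows and nothing about binding.

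KO replicate 1 stood apart from the other arrays, with 62.6% of features well above background in Cy3 and 67.7% in Cy5, against 52.8% to 56.2% in the channels of the other 3, its dye-swap partner included. No feature was saturated. Leaving out replicate 1 of both genotypes ended 6 of 43 calls of members in the contrasts between genotypes, against 1 without replicate 2, and the part of this array in them was not tested. The arrays labelled WT shared 1 slide and those labelled KO lay on others scanned at different times, so slide and scan cannot be told apart from genotype in any KO to WT comparison. Of the 4 Lats2 probes, 3 read higher in KO than in WT at both densities (log2 difference 1.38, 1.39 and 1.18 at low density) and 1 read lower (-0.64 at low and -1.27 at high density). The deleted part of the gene is not given in the sources used here, so genotype below means the label only. The sign of a KO to WT difference therefore rests on that label.

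Marker genes were read as a check of the cell type. All 9 fibroblast markers, among them Col1a1, Vim and Thy1, were well above background in all 8 channels, with a summed linear signal of 457792 in WT low density, 500435 in WT high, 456877 in KO low and 666632 in KO high density. Ptprc, Emr1 and Itgam of the 6 macrophage markers were above background in no channel. Cd14 and Cd68 were measured in all 8 channels and Csf1r in 6, and Cd14 was lower in KO by log2 -1.80 at low and -1.60 at high density. The 6 summed to between 541 in KO high and 968 in WT low density. Of 5 endothelial markers, 1 at most was above background in both dyes of a condition (sums 317 to 350), and of 4 muscle markers none was (253 to 262). Cdh1, Tacstd1 and Krt8 of the 5 epithelial markers were above background in no channel, and Krt18 in 2. Krt19 was measured in 7 channels, with log2 ratios of -2.17 in WT and -2.19 in KO for density and of -1.94 at low and -1.96 at high density for KO to WT. The epithelial list summed to 1537 in WT low density and 321 in KO high density. The 5 neural markers summed to 10857 in WT low, 2729 in WT high, 1258 in KO low and 797 in KO high density, with Nes holding most of both WT sums. The 4 cartilage markers summed to 7844, 6950, 1772 and 7258 in the same order, with Col2a1 holding most of each sum but that of KO low density. These sums moved with genotype or density, and their part in the Wnt results was not tested.

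Signals below are normalized log2 values of a gene's brightest probe, comparable for 1 probe across channels and not between genes. A probe counts as measured where the extraction software found it well above local background. A density ratio was formed for genes measured on both arrays at 1 density or more, and a KO to WT ratio for genes that at least 1 genotype measured with each dye. A gene was called higher or lower at a 2-fold change, that is a mean log2 ratio of 1 or more in size, if the arrays of the pair, or the dyes, also had equal signs. Each array of a pair deviated from the pair's mean log2 density ratio with an SD of 0.101 over 14883 genes in WT and 0.141 over 15439 genes in KO. This is technical error of the dye swap only, and n is 1 for each genotype and density. With the processed signals of the extraction software in place of the raw intensity, all 65 calls of members remained, but 33 of their values moved by over 1.5 times, 31 of them to a larger size.

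Of the 48 members, 19 were measured in all 8 channels and 10 in none. A ratio could be formed in at least 1 of the 5 contrasts for 32 members, and 26 of these were called at least once: 7 ligands, 9 receptors, 6 antagonists and 4 intracellular members. The share of all genes called at least once is not given here, so this count cannot be set against it. Wnt6, Wnt7b, Fzd2, Fzd3, Ror2 and Axin1 passed the filter and were never called. The other 16 had no ratio: Wnt1, Wnt2b, Wnt3, Wnt3a, Wnt7a, Wnt8a, Wnt8b, Wnt9b, Wnt10a, Wnt10b, Fzd10, Dkk1, Dkk4, Sfrp5, Wif1 and Tcf7. Wnt1, Wnt3 and Wnt3a, ligands known for beta-catenin signalling, were thus at or near background, as was the secreted inhibitor Wif1. Wnt8a read 7.06 and 7.02 on WT replicate 2 but 5.81 and 6.10 on WT replicate 1, and the Wnt9b spot was flagged as an outlier on KO replicate 2. Because a member enters only through a condition in which it is bright, the counts below describe the members that passed and support nothing beyond that.

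At high density in WT cells, 10 of 27 measured members were higher and 2 were lower. Over all genes the same rule called 9.41% higher and 6.09% lower. The higher members were the ligands Wnt2, Wnt5b and Wnt16, the receptors Fzd1, Fzd4, Fzd8 and Lrp5, the antagonists Dkk2 and Sfrp1, and Nkd1. The lower members were Fzd6 and Lef1. The median log2 ratio was 0.64 over these members and 0.06 over all 14883 genes. In bulk RNA, fewer cells of a type and less RNA per cell cannot be told apart.

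In KO cells, 10 of 30 measured members were higher at high density and none was lower, where the rule called 7.15% of all genes higher and 3.88% lower. The higher members were Wnt2, Wnt5b, Wnt11, Fzd1, Lrp6, Sfrp1, Sfrp2, Sfrp4, Axin2 and Nkd1. The median log2 ratio was 0.55 over the members and 0.06 over all 15439 genes. The 5 members called higher in both genotypes were Wnt2, Wnt5b, Fzd1, Sfrp1 and Nkd1. The share of all genes called higher in both is not given here, so this count cannot be set against it. Of the 25 members with both ratios, 16 were above 0 in both genotypes, 4 were below 0 in both, and Fzd5, Fzd6, Fzd7, Fzd9 and Axin1 had opposite signs. Over all 14171 genes with both ratios, 5872 were above 0 in both, 4680 below 0 in both and 3619 opposite.

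**Figure D1:**
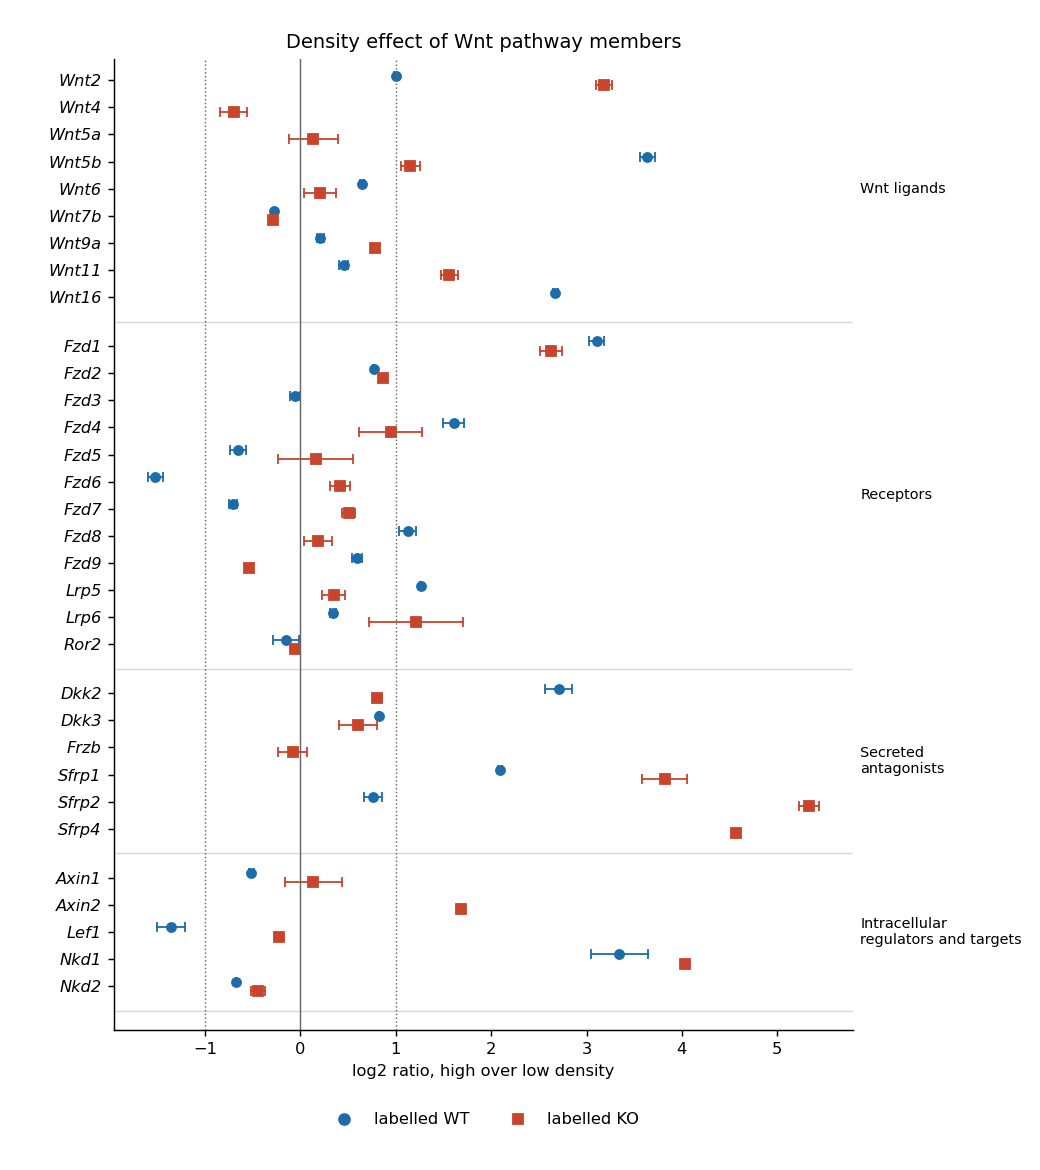
Log2 ratio of high over low density (x axis) for each member with a ratio in WT (blue circles) or KO (red squares), by role. Large points are means of the dye-swap pair, the bars end at the values of the single arrays, dotted lines mark a 2-fold change, and a missing point means that the filter was not passed. Sfrp2 has the largest ratio, 5.33 in KO, and the only WT points left of -1 are Fzd6 at -1.52 and Lef1 at -1.36.

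The ligands split by genotype. Wnt5b, a ligand of beta-catenin independent signalling, has its brightest probe at chr6:119398613-119398672 (array annotation, build mm8). Its signal in WT was 8.15 in Cy3 and 8.15 in Cy5 at low density and 11.87 and 11.70 at high density, and in KO it was 6.53 and 6.35 at low and 7.60 and 7.58 at high density. Both WT high density channels stood above every other channel, and both KO low density channels below. Wnt5b was 12.5-fold higher at high density in WT and 2.22-fold higher in KO, a difference of the density effects of -2.49 on the log2 scale. The extraction software's processed signals gave a KO log2 ratio of 2.26 in place of 1.15 and a difference of -1.69. KO read 3.27-fold lower than WT at low density and 18.3-fold lower at high density. Processed signals gave log2 differences of -3.16 in place of -1.71 at low and -4.85 in place of -4.20 at high density, so these folds are not settled. A second, dimmer Wnt5b probe gave log2 density ratios of 1.77 in WT and 0.17 in KO, the latter without passing the filter. Its KO to WT log2 difference was -0.93 at low density, short of the 2-fold size, and -2.54 at high density.

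Wnt16, a ligand known from bone and joint tissue, was likewise highest in WT at high density, on its probe at chr6:22241090-22241149. Its WT signal was 7.28 in Cy3 and 7.09 in Cy5 at low density and 9.79 and 9.93 at high density. In KO it was 6.19, 6.13, 6.24 and 6.20, with 1 dye above background at each density. The WT rise was 6.38-fold, and no KO density ratio was formed. KO was 12.5-fold lower than WT at high density and 2.04-fold lower at low density. The latter misses the 2-fold size without scaling between arrays (log2 -0.85) or without replicate 1 (-0.96), and was -3.16 with processed signals. The high density difference was log2 -3.64, or -6.29 with processed signals, so its fold is not settled.

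Wnt4, a ligand known from kidney and gonad development, was read in KO alone, by a probe annotated to chr4:136567851-136568419. Its KO signal was 10.23 in Cy3 and 10.16 in Cy5 at low density and 9.60 and 9.38 at high density. The 4 WT channels read between 5.91 and 6.10, and none of them was well above background. KO was therefore at least 16.3-fold higher at low and at least 9.68-fold higher at high density, a bound against the lowest signal that counted as measured on each WT channel. Within KO the density ratio was -0.70 on the log2 scale, short of the 2-fold size.

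Wnt5a and Wnt9a were likewise higher in KO at both densities. Wnt5a, the best known ligand of beta-catenin independent signalling, was 5.97-fold higher at low and 6.82-fold higher at high density. Its WT signals lay between 6.37 and 6.50, with 1 dye above background at each density, and its KO signals between 8.91 and 9.46. With processed signals the log2 differences were 4.27 at low and 4.52 at high density in place of 2.58 and 2.77, so these folds are not settled. Wnt9a was 5.06-fold higher at low and 7.50-fold higher at high density, with all channels measured. A second Wnt9a probe was near background throughout. Wnt9a did not reach a 2-fold density change in either genotype and Wnt5a did not in KO, and no WT density ratio was formed for Wnt5a.

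Wnt2 and Wnt11 were the ligands whose density effect was larger in KO by the 2-fold size. That of Wnt9a was larger by log2 0.57. Wnt2 is known from vessel and lung development and Wnt11 from cell movement in the embryo. Wnt2 read 7.24 and 7.23 in WT low, 8.21 and 8.26 in WT high, 7.57 and 7.66 in KO low and 10.75 and 10.84 in KO high density, in the order Cy3 and Cy5. Its 2 KO high density channels stood clear of the rest. Its log2 density ratio in WT was just at the 2-fold size, with 1.02 and 0.98 on the 2 arrays, and short of it with median centring (0.95) or without WT replicate 1 (0.98). In KO the ratio was 3.18 (9.08-fold). At high density KO was 5.90-fold above WT. Wnt11 rose 2.95-fold in KO and was at least 1.37-fold higher at high density in WT, whose low density channels were not well above background. At high density, where both genotypes were measured, KO was 2.36-fold above WT. With processed signals the Wnt11 density ratio in KO was log2 2.61 in place of 1.56. Its high density KO to WT difference was then 1.90 in place of 1.24, so these folds are not settled. Wnt6 and Wnt7b had log2 ratios between -0.44 and 0.64 in all contrasts. A second Wnt6 probe gave a KO to WT log2 difference of -1.20 at high density, against -0.19 for the brightest.

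Among the receptors, Fzd1 carried the largest density effect and rose in both genotypes. Its probe lies at chr5:4760009-4760068. Its signal was 10.15 in Cy3 and 9.97 in Cy5 in WT low, 13.15 and 13.18 in WT high, 10.52 and 10.59 in KO low and 13.11 and 13.27 in KO high density. All high density channels lay above all low density channels. The rise was 8.62-fold in WT and 6.20-fold in KO, and the KO to WT differences were 0.50 at low and 0.02 at high density on the log2 scale.

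Lrp5, a coreceptor that also sets bone mass, was higher in KO at both densities. Its signal, on the probe at chr19:3584870-3584930, was 7.77 in Cy3 and 7.60 in Cy5 in WT low and 8.86 and 9.04 in WT high density. In KO it was 10.09 and 9.95 at low and 10.18 and 10.56 at high density. Every KO channel lay above every WT channel. KO was 5.04-fold above WT at low and 2.68-fold above at high density, and WT rose 2.40-fold with density against a log2 ratio of 0.35 in KO. The related coreceptor Lrp6 rose 2.31-fold in KO, but its 2 arrays gave log2 ratios of 1.71 and 0.71, and without KO replicate 1 it is not called (0.71). KO was 3.07-fold above WT for Lrp6 at high density.

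Fzd6, a receptor known from planar cell polarity and hair orientation, was called lower at high density in WT and was not called in KO. Its signal on the probe at chr15:38867635-38867694 was 10.62 in Cy3 and 10.52 in Cy5 in WT low, 8.93 and 9.17 in WT high, 8.66 and 8.86 in KO low and 9.17 and 9.17 in KO high density. Both WT low density channels stood above the others. The WT ratio was -1.52 (2.87-fold lower) and the KO ratio 0.41, and KO was 3.52-fold below WT at low density. At high density the KO to WT log2 difference was 0.12.

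Other Frizzled genes differed by probe. Fzd7 had log2 density ratios of -0.71 in WT and 0.50 in KO on its brightest probe and 0.24 and 0.47 on the other, so that the difference of 1.21 was 0.22 on the second probe. Fzd5 was 2.07-fold higher in KO at high density on the brightest probe, with log2 values of 1.37 and 0.72 in the 2 dyes, so that the call is lost without replicate 1, and -0.23 on the other. Fzd2 rose by log2 0.77 in WT and 0.86 in KO, and its second probe by 1.08 and 0.90. Their KO to WT differences at low density had opposite signs (0.40 and -0.79).

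Fzd4, a receptor of vascular development, rose 3.05-fold in WT and was 2.48-fold lower in KO at high density. Fzd8 rose 2.18-fold in WT, and its second probe at least 2.53-fold. Fzd8 was 2.02-fold lower in KO at high density, a value that misses the 2-fold size with median centring (log2 -0.98), without scaling between arrays (-0.77), with its probes averaged (-0.89) and without replicate 1 (-0.87). Fzd9 had density ratios of 0.59 in WT and -0.54 in KO and was 2.15-fold lower in KO at high density, or log2 -0.92 without scaling between arrays and -0.85 without replicate 1. With 1 KO dye above background there, processed signals gave -2.86 in place of -1.10, so its size is not settled. Fzd3 and Ror2, the receptor for Wnt5a, had log2 ratios between -0.73 and 0.37.

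**Figure D2:**
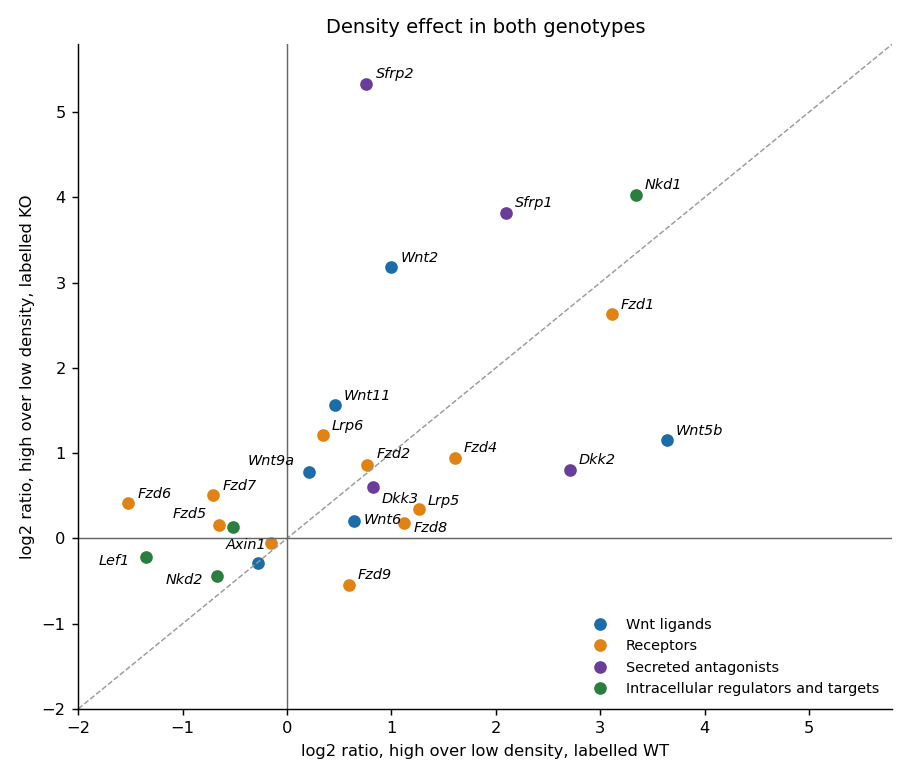
Log2 density ratio in KO (y axis) against that in WT (x axis) for the 25 members with a ratio in both, coloured by role, with the line of equal effects dashed. Sfrp2, Wnt2 and Fzd6 lie furthest above the line and Wnt5b and Dkk2 furthest below it, while Fzd1 lies near it at 3.11 and 2.63.

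The secreted antagonists held the largest changes of all members. Sfrp2, a Wnt-binding protein made by fibroblasts in skin and scar, has its probe at chr3:83859869-83859928. Its signal was 6.29 in Cy3 and 6.13 in Cy5 in WT low, 6.79 and 7.15 in WT high, 8.09 and 7.92 in KO low and 13.14 and 13.53 in KO high density. The KO high density channels stood far above the others, and the WT low density channels were not well above background. Sfrp2 rose 40.3-fold with density in KO and was at least 1.68-fold higher at high density in WT. KO was at least 3.44-fold above WT at low density and 82.7-fold above at high density, where both genotypes were measured. With processed signals the log2 differences were 5.57 at low and 7.35 at high density in place of 1.80 and 6.37, so their sizes are not settled.

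Sfrp1, a close relative, was higher at high density in both genotypes. Its WT signal was 7.47 and 7.27 at low and 9.39 and 9.54 at high density, and its KO signal 8.73 and 8.85 at low and 12.43 and 12.78 at high density. The rise was 4.27-fold in WT and 14.1-fold in KO, and KO was 2.67-fold above WT at low and 8.84-fold above at high density. On a second, dimmer probe the rise was at least 1.28-fold in WT and at least 3.22-fold in KO, and the KO to WT log2 difference at high density was 1.26.

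Sfrp4, a relative known from bone and fibrosis, rose 23.7-fold in KO on its probe at chr13:19640084-19640143, from 6.89 and 6.79 at low to 11.39 and 11.42 at high density. With processed signals the Sfrp4 log2 ratio in KO was 5.59 in place of 4.56, so its size is not settled. In WT its spot was flagged as an outlier on replicate 2, so no WT ratio was formed. On the other WT array it read 6.62 at low density, not well above background, and 8.85 at high density. Both KO high density channels lay above the WT one.

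Dkk2, an antagonist at LRP5 and LRP6, was read at high density in WT and at both densities in KO, by a probe at chr3:132116699-132116758. Its signal was 6.64 in Cy3 and 5.89 in Cy5 in WT low, both not well above background, and 8.74 and 9.20 in WT high density. In KO it was 10.72 and 10.64 at low and 11.40 and 11.57 at high density, above every WT channel. The WT rise was at least 6.25-fold and the KO log2 ratio 0.81. KO was at least 20.4-fold above WT at low density and 5.71-fold above at high density.

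Dkk3, a divergent relative whose role in Wnt signalling is less settled, was 3.14-fold higher in KO at low and 2.69-fold higher at high density, and its density log2 ratios were 0.82 in WT and 0.60 in KO. Frzb, another Wnt-binding protein, was called higher in KO at low density with values that do not agree between dyes. Its KO signal was 6.27 and 6.34 on replicate 1 and 7.95 and 7.71 on replicate 2, each given for low and then high density. The 2 KO arrays thus differed more than the 2 densities. Its KO to WT log2 difference at low density was 0.11 in one dye and 2.01 in the other.

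The intracellular members hold both feedback inhibitors and nuclear partners of beta-catenin. Nkd1, which binds Dishevelled and is induced by Wnt signalling, has its probe at chr8:91482365-91482424. Its signal was 6.80 in Cy3 and 6.09 in Cy5 in WT low, not well above background, and 9.73 and 9.84 in WT high density. In KO it was 6.54 and 6.23 at low and 10.22 and 10.61 at high density. All high density channels lay above all low density channels. The rise was at least 10.1-fold in WT and 16.4-fold in KO. With processed signals the log2 ratios were 5.53 in WT and 5.72 in KO, in place of 3.34 and 4.03. With the Nkd1 probes averaged they were 2.09 and 2.62, so these folds are not settled. A second Nkd1 probe rose by log2 0.83 in WT and 1.21 in KO.

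Its relative Nkd2 differed by genotype and little by density. Its signal on the probe at chr13:74286591-74286650 was 7.19 in Cy3 and 7.30 in Cy5 in WT low, 6.63 and 6.51 in WT high, 11.42 and 11.26 in KO low and 10.89 and 10.89 in KO high density. Every KO channel lay above every WT channel. The KO to WT log2 difference was 4.09 at low and 4.32 at high density, where 1 WT dye was above background. With processed signals it was 4.75 and 6.31, so its size is not settled. A second probe was at least 5.20-fold and at least 4.77-fold higher in KO.

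Lef1, a DNA-binding partner of beta-catenin, fell with density in WT. On the probe at chr3:131213273-131213332 it read 8.04 in Cy3 and 8.05 in Cy5 in WT low, 6.85 and 6.54 in WT high, 9.04 and 8.99 in KO low and 8.76 and 8.81 in KO high density. The WT high density channels were the lowest and all KO channels the highest. Lef1 was 2.56-fold lower at high density in WT, with a KO log2 ratio of -0.22, and KO was 4.27-fold above WT at high density. With processed signals the WT density ratio was log2 -2.77 in place of -1.36. The high density KO to WT difference was then 3.51 in place of 2.10, so these folds are not settled. On a second probe the WT fall with density was at least 1.69-fold and the excess in KO at high density at least 2.80-fold. That probe was also called higher in KO at low density (log2 1.03), where the brightest was not (0.96). The last probe was at background in all 8 channels.

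Axin2, a scaffold of the destruction complex that Wnt signalling induces, was well above background in both dyes of KO high density alone, at 7.52 and 7.84. In KO low density it read 6.18 and 5.81, in WT low 6.26 and 6.01 and in WT high 6.17 and 6.66. It was at least 2.93-fold higher at high than at low density in KO, where its log2 ratio was 1.69, or 5.18 with processed signals, and 2.40-fold higher in KO than in WT at high density, where 1 WT dye was above background and processed signals gave log2 2.53 in place of 1.26. Its constitutive relative Axin1 had log2 ratios between -0.87 and 0.65 in all contrasts.

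**Figure D3:**
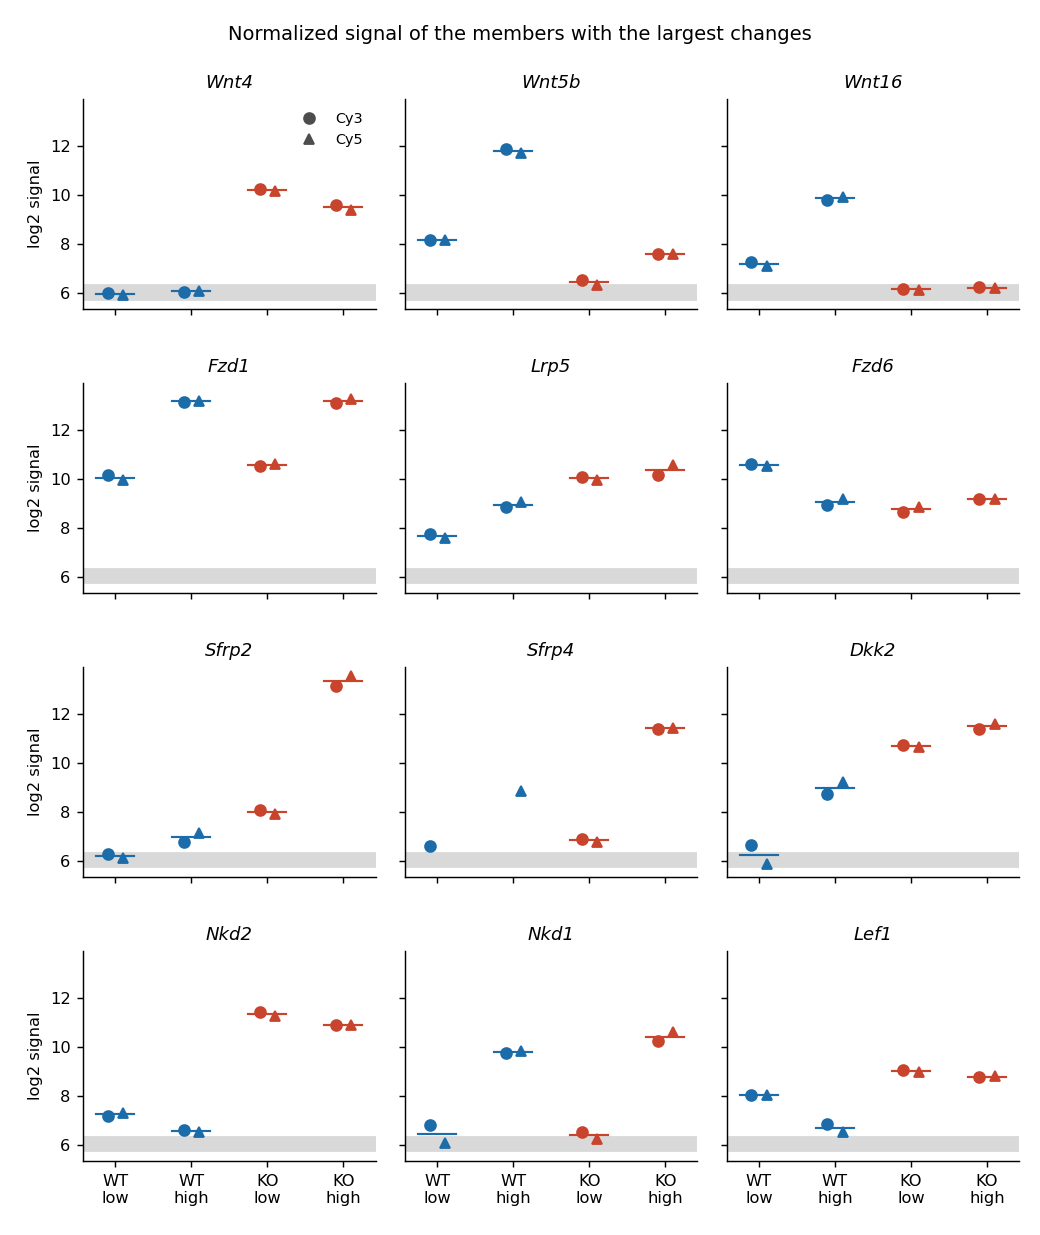
Normalized log2 signal (y axis) of the 3 members of each role with the largest change, 1 row per role, in the 4 conditions, with circles for Cy3, triangles for Cy5, a line at their mean, WT in blue and KO in red. The grey band spans the lowest signals that counted as well above background in the 8 channels, and the outlier spots of Sfrp4 on WT replicate 2 are not drawn. Wnt4 leaves the band in KO alone, and Sfrp2 reads 13.14 and 13.53 in KO high density.

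Between the genotypes the density effects differed by the 2-fold size in 10 of 25 members. Wnt2, Wnt11, Fzd6, Fzd7, Sfrp1, Sfrp2 and Lef1 had the larger or less negative ratio in KO, and Wnt5b, Fzd9 and Dkk2 the smaller. Over all 14171 genes the rule called 4.56% higher and 4.97% lower. The WT low density channels of Wnt11, Sfrp2 and Dkk2 were not well above background, so the size of the difference is not settled for them. With processed signals the difference was 1.78 for Sfrp2 in place of 4.57, -4.96 for Dkk2 in place of -1.90, 2.46 for Lef1 in place of 1.13 and -2.76 for Fzd9 in place of -1.14. Without replicate 1 it was 0.97 for Wnt11 and 0.98 for Lef1, short of the 2-fold size. The median difference was 0.23 over the members and 0.02 over all genes.

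At low density, 10 of 30 members were higher in KO and 3 were lower, against 7.28% and 8.41% of all 15255 genes. The higher members were Wnt4, Wnt5a, Wnt9a, Lrp5, Dkk2, Dkk3, Frzb, Sfrp1, Sfrp2 and Nkd2, and the lower were Wnt5b, Wnt16 and Fzd6. Wnt4, Dkk2, Frzb and Sfrp2, 4 of the 10 higher, were above background in no WT low density channel. They entered through KO alone, as did Wnt5a with 1 WT dye above background, so the filter left little room for a lower value. The lower Wnt16, with 1 KO dye above background, entered through WT alone. The call of Frzb is lost without replicate 2 (log2 0.11). The median log2 difference was 0.33 over the members and 0.03 over all genes.

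At high density, 15 of 31 members were higher in KO and 5 were lower, against 6.68% and 7.8% of all 15621 genes. Of the ligands, Wnt2, Wnt4, Wnt5a, Wnt9a and Wnt11 were higher and Wnt5b and Wnt16 lower. Fzd5, Lrp5 and Lrp6 were higher and Fzd4, Fzd8 and Fzd9 lower. Dkk2, Dkk3, Sfrp1, Sfrp2, Axin2, Lef1 and Nkd2 completed the higher members. Of the higher members, Wnt4, Wnt5a, Axin2 and Nkd2 passed the filter through KO alone, and of the lower, Wnt16 and Fzd9 through WT alone. For these the filter left little room for a difference in the other direction. The median log2 difference was 0.85 over the members and 0.02 over all genes. The genotype contrasts and the difference of the density effects share channels, so they are not separate evidence. Without scaling between arrays, the median KO to WT difference over all genes was 0.27 at both densities, and the higher members were then 12 of the 14 called at low density and 15 of the 18 called at high density.

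**Figure D4:**
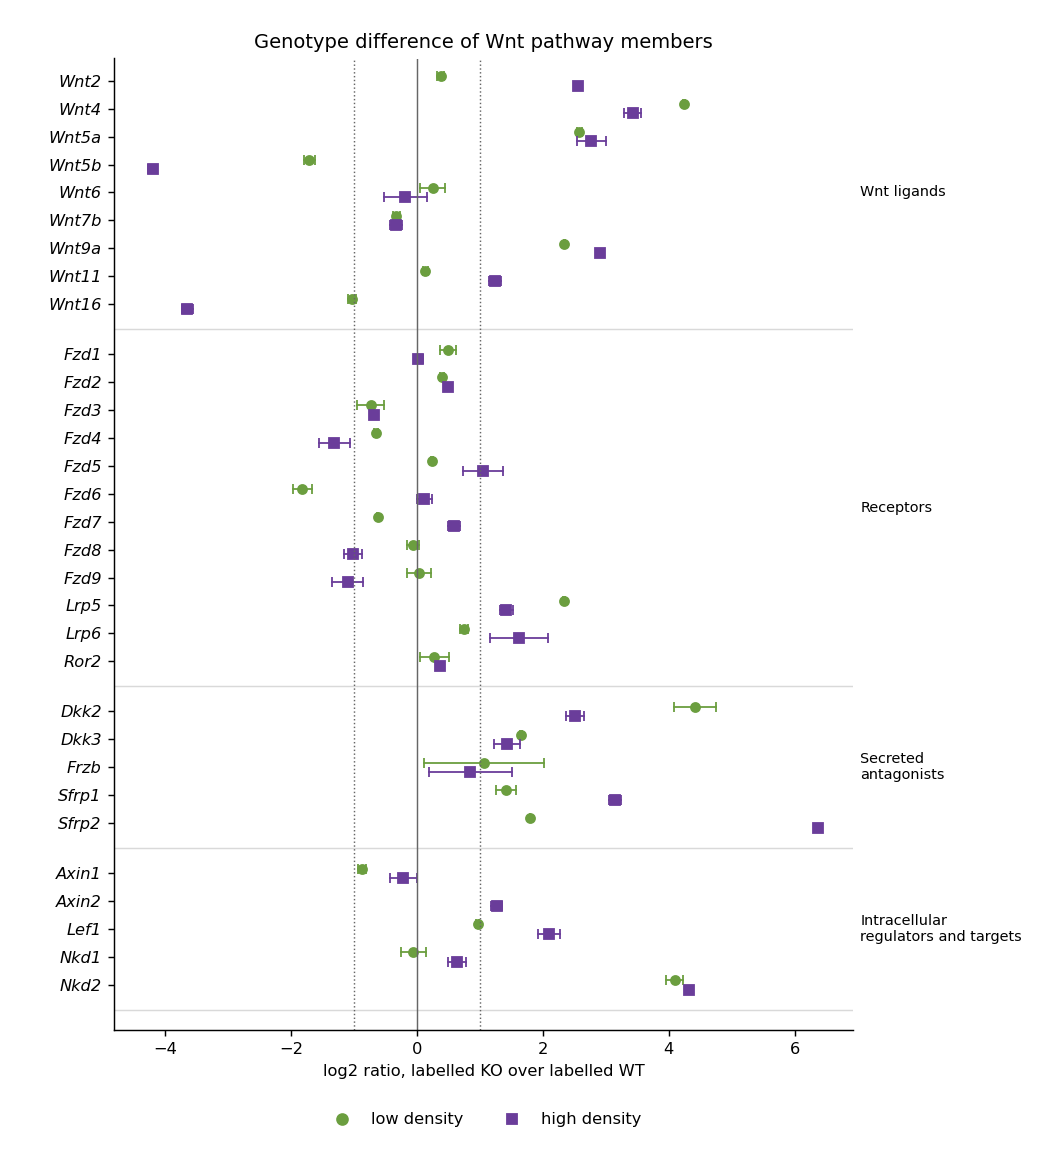
Log2 ratio of KO over WT (x axis) at low (green circles) and high density (purple squares) for each member with a ratio, by role. Large points are means over both dyes, the bars end at the values of the single dyes, and dotted lines mark a 2-fold difference. Sfrp2 at high density lies furthest right at 6.37 and Wnt5b at high density furthest left at -4.20.

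Other genes of the pathway were read from 3 lists. Of 26 further surface and secreted genes, 4 were higher and none lower at high density in WT (16 measured), and 4 were higher and 1 lower in KO (19 measured). Over all genes the rule called 9.41% higher and 6.09% lower in WT and 7.15% and 3.88% in KO. KO was higher than WT in 4 of 17 and lower in 2 at low density, and higher in 6 of 18 and lower in 4 at high density, against 7.28% and 8.41% of all genes at low and 6.68% and 7.8% at high density. The density effect differed by the 2-fold size in 3 of 15, larger in KO for Lgr5 and smaller for Rspo2 and Rspo3, against 4.56% and 4.97% of all genes. Lgr5, a receptor for R-spondins, rose 11.7-fold with density in KO and was at least 1.26-fold higher at high density in WT, and KO was 52.8-fold above WT at high density. Gpc3, a cell surface proteoglycan, rose 17.9-fold in KO and was at least 29-fold above WT at high density. Rspo2, a secreted enhancer of Wnt signalling, went the other way, with a 3.70-fold rise in WT, a KO log2 ratio of 0.16 and a 6.95-fold lower level in KO at high density. Lgr6, another R-spondin receptor, was 2.15-fold lower at high density in KO and at least 3.68-fold above WT at low density.

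All 30 cytoplasmic and nuclear genes were measured. At high density 9 were higher in WT and 6 in KO, against 9.41% and 7.15% of all genes, and none was lower. KO was above WT in 3 and below in 2 at low density, and above in 2 and below in 3 at high density, counts near the shares over all genes of 7.28% above and 8.41% below at low and 6.68% above and 7.8% below at high density. The density ratio was higher in KO by the 2-fold size for Csnk1e alone of the 30 and lower for 5, Dact1, Dact2, Tle2, Aes and Daam2, against 4.56% and 4.97% of all genes. Tle2, a corepressor of TCF factors, rose 9.42-fold in WT and 4.68-fold in KO. Dact1, a Dishevelled-binding regulator, rose 5.21-fold in WT with a KO log2 ratio of 0.66, and was 6.20-fold higher in KO at low density. Daam2, a formin-related partner of Dishevelled, rose 5.68-fold in WT and 2.12-fold in KO, and Prickle1, a planar polarity protein, 3.68-fold and 2.11-fold.

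Of 17 further genes reported as beta-catenin targets in other cells, 15 were measured with density. In WT 2 were higher and 4 lower at high density, and in KO 4 were higher and 4 lower, where the rule called 9.41% and 6.09% of all genes in WT and 7.15% and 3.88% in KO. KO was above WT in 6 and below in 1 of 14 at low density, and above in 6 and below in 2 of 15 at high density, with 7.28% and 8.41% of all genes at low and 6.68% and 7.8% at high density. The difference of the density effects was called above 0 for Tnfrsf19 and Id2 and below 0 for Wisp1 and Fosl1, 2 and 2 of 15 against the same 4.56% and 4.97%. Wisp2, a matricellular protein, was 4.45-fold lower at high density in WT and 2.87-fold lower in KO, and KO was 8.66-fold above WT at low and 13.4-fold above at high density. Msx1, a homeobox factor, was 3.54-fold and 5.16-fold higher in KO at low and high density. Fgf18, a growth factor, rose 4.37-fold in WT and 5.03-fold in KO. Fosl1, an AP-1 subunit, was 4.96-fold lower at high density in KO with a WT log2 ratio of -0.86.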

How the data were processed

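RNA of embryonic fibroblasts from mice labelled Lats2 KO or WT, grown to low or high density, was read on 4 Agilent 2-colour arrays. Each genotype had a dye-swap pair. The labels gave the genotype, the density and the dye of every channel. Per the file headers, the authors extracted the scans with Agilent Feature Extraction 10.5.1.1, and each deposited scanner file holds mean spot intensity, local background intensity and processed signal intensity for Cy3 and Cy5, flags scored 0 or 1, and a log10 ratio of Cy5 to Cy3. Setting the deposited series matrix beside these files showed it to be that log10 ratio, with high over low density on every array. Probes carry their array annotation in mm8 coordinates, left as they were, and their exons were not looked up.

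Ratios came from raw intensity (R 4.3.3, limma 3.58.1) by normexp (offset 50), loess within arrays with controls and outlier spots at weight 0, averaging of repeated features, and Aquantile scaling between arrays. The offset shrinks ratios of dim probes. Log2 density ratios were averaged over the dye swap, and KO was set against WT within each dye. The filter, the 2-fold rule and the 1 probe per gene are given with the results and were applied to all genes. A bound, written "at least", sets channels of the dim side that lie under the lowest signal well above background to that signal. No significance test could be made, since n is 1 for each genotype and density. The code of the call rule was tested on simulated data with known changes, which says nothing of the error of these arrays. Tables were handled in Python 3.11.15 with numpy 2.4.6 and pandas 2.3.3. Figures used matplotlib 3.10.9.

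The members and lists were chosen with earlier results of these data known. All members called in any contrast are named, with every channel for the 3 largest changes of each role, and at most 4 genes of each other list, those with the largest change. The alternatives were other background correction, signals, centring, scaling, filters, fold size and probe rules, the series matrix and single arrays. Promoter windows came from RefSeq (GRCm38.p6). Notum, Dact3 and Cby1 had no probe of that name.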

Additional observations from a re-analysis of the deposited data

Results flagged for a closer look

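Fzd6, Fzd7 and Fzd9 had density effects of opposite sign in the 2 genotypes on both arrays of each genotype, each on its brightest probe, and with 1 replicate per genotype this difference was not tested. For Fzd6 the log2 density ratio was -1.52 in WT and 0.41 in KO, a difference of 1.94. For Fzd7 it was -0.71 in WT and 0.50 in KO, a difference of 1.21. On its second probe the opposite sign was absent, with ratios of 0.24 in WT and 0.47 in KO, above 0 on every array, and a difference of 0.22. For Fzd9 it was 0.59 in WT and -0.54 in KO, a difference of -1.14, with signals near background in KO at high density.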

How the results depend on the processing

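No call of a member changed direction under any alternative, and 547 of 585 calls recomputed under the alternatives other than the 1.4-fold size still passed the filter, the 2-fold size and the sign rule. A 1.4-fold size can end no call. With a 1.4-fold size the called members numbered 21 for density in WT, 18 for density in KO, 18 for the difference of the density effects and 20 for genotype at low density, against 12, 10, 10 and 13 at 2-fold. The share of all genes called under each alternative is not given here, so these counts and those that follow cannot be set against it. With probes well above background in every channel, 6 members were called for the difference and 7 for genotype at low density, since fewer genes enter. That filter removed 19 of the 65 calls by its construction, among them Wnt4, Wnt5a, Wnt16 and Dkk2 at low density. With 1 array or dye left out, the counts were 11 to 12 for density in WT, 9 to 11 in KO, 9 to 14 for the difference, 12 at low and 18 to 21 at high density. Leaving out replicate 1 ended 6 of 43 calls of the difference and the genotype contrasts: Wnt11 (0.97) and Lef1 (0.98) for the difference, Wnt16 (-0.96) at low density, and Fzd5 (0.72), Fzd8 (-0.87) and Fzd9 (-0.85) at high density. Leaving out replicate 2 ended that of Frzb at low density (0.11). Without replicate 1 of WT, Wnt2 lost its density call (0.98), and without that of KO, Lrp6 (0.71). Averaging probes ended the calls of Fzd7 (0.72) and Lef1 (0.80) for the difference and of Fzd5 (0.41) and Fzd8 (-0.89) at high density, where the probes of a gene disagree. Median centring ended the call of Lrp6 for density in KO by the sign rule (log2 1.09). Centring also moved the share of higher among all called genes from 60.7% to 47.1% for density in WT and from 64.8% to 42.8% in KO, while the members split 9 to 2 and 9 to 0. It moved the median of all genes from 0.06 to -0.08 in KO. Without scaling between arrays the share rose from 46.4% to 69.1% at low and from 46.1% to 66.6% at high density. Processed signals gave 12 to 23 called members a contrast. They moved 33 of 65 values by over 1.5 times, those of Wnt5b and Sfrp2 for the difference to a smaller size and 31 to a larger one. The series matrix values moved 14 of 32, averaging probes 10 of 65, no background correction 3 of 65, and leaving out a replicate only Frzb at low density. No paired analysis was possible because the result comes from no test. The number of arrays limits the precision, dim probes carry bounds only, and density cannot be told apart from time in culture nor genotype from slide.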
